A study of Rattus norvegicus with 8 samples.

Results

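The genes described here are 133 rows of a rat gene count table with 37209 rows. They were chosen by name and not by their values: every gene whose symbol begins with Kcn, Cacna or Cacnb, and the numbered genes of the TRPC, TRPM and TRPV channels. They comprise 94 potassium channel genes, 18 voltage-gated calcium channel genes and 21 TRP channel genes, auxiliary subunits included. Of the 133, 75 had enough counts to be tested (46 potassium, 16 calcium and 13 TRP channel genes). Of the 58 that had not, 13 had no count in any library, 19 had 1 to 10 counts in all and 26 had more.

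RNA came from 4 vein grafts (grafts 1 to 4) and 4 control jugular veins (controls 1 to 4) of Sprague Dawley (SD) rats, with no allele or drug named, all taken 1 week after the operation. A graft is a vein joined by cuffs to the everted ends of the cut left carotid artery, so that it carries arterial blood. A control is the contralateral jugular vein, and no sham operation is named. Neither age nor sex of the animals is stated in the labels, nor whether veins were pooled.

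Potassium channels let potassium leave the cell and hold the membrane of vascular smooth muscle negative, which keeps voltage-gated calcium channels shut. L-type calcium channels open on depolarization and admit the calcium that starts contraction. TRP channels are mostly cation channels without strict selectivity, opened by receptors, lipids, stretch, heat or oxidants. Leukocytes carry their own set of potassium and TRP channels, of which the products of Kcna3 and Kcnn4 are the best known in T cells and macrophages.

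Total counts ran from 10533451 to 16061189 in the grafts and from 5981520 to 14267490 in the controls, and levels are given in CPM, counts relative to a TMM-corrected library size. The level of 3 counts was 0.182 to 0.240 CPM in the grafts and 0.225 to 0.560 CPM in the controls. Controls 3 and 4 stood apart from controls 1 and 2 in nerve and fat markers. Summed over 9 Schwann cell genes they held 3320 and 3103 CPM, against 273 and 380 CPM in controls 1 and 2, and summed over 10 fat cell genes 2346 and 3581 CPM, against 558 and 817 CPM. For called genes and those named by rule, lost calls and fold changes that moved by over 1.5 times without these libraries are given both ways. Uncalled genes named after their values were seen, among them Kcnk1 and Cacna1s, have no such values here. The extraction protocol in the labels names a brain region, while the tissue labels name veins. Genes of contractile smooth muscle were abundant in every library, while of 12 neuron genes 7 had too few counts to test, Gad2 had none, and the highest, Stmn2, reached 45.2 CPM in the grafts and 4.11 CPM in the controls. The labels name the control as the other vein of the same animal, but nothing in them links numbered grafts to numbered controls. The fits were therefore unpaired, and p-values set each difference against the spread between libraries, not within animals. Gene lengths were not used, and levels are compared between samples, not between genes.

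Channel genes changed in both directions. Of the 75 tested, 15 rose in the grafts, 22 fell and 38 did not pass the test (edgeR quasi-likelihood test, Benjamini-Hochberg adjusted p under 0.05 over 15464 genes, here called the edgeR adjusted p). The share called, 49.3%, stands beside 42.3% of all genes tested, of which 21% rose and 21.3% fell. Grafts and controls were fully separated for 35 of the 75, against 40.6% of all genes. The median log2 fold change (graft minus control) was -0.04 over the tested channel genes and 0.01 over all genes. The median size of the change, regardless of sign, was 0.92 in the tested channel genes and 0.51 over all genes. These medians were not matched for count level, and fold changes of genes with few counts scatter more. The 38 genes that did not pass ran from -1.99 (Kcnk1) to 0.98 (Kcnt1). Members with few counts in 1 group could pass the count filter only through the other. Kcnn2 had under 10 counts in every graft library, and Kcnh1, Cacna1b and Cacna1i had under 10 in every control library, so the counts over tested members describe and support nothing. The p-values of Kcnn2, Kcnh1, Cacna1b and Cacna1i are likewise given as description. With controls 3 and 4 left out, 18 of 83 tested rose and 18 fell, beside 2525 higher and 2253 lower of 16445 genes in that fit (29.1% called). With library totals in place of TMM factors, 17 channel genes were higher and 17 lower, beside 4558 higher and 2164 lower among all genes.

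**Figure D1:**
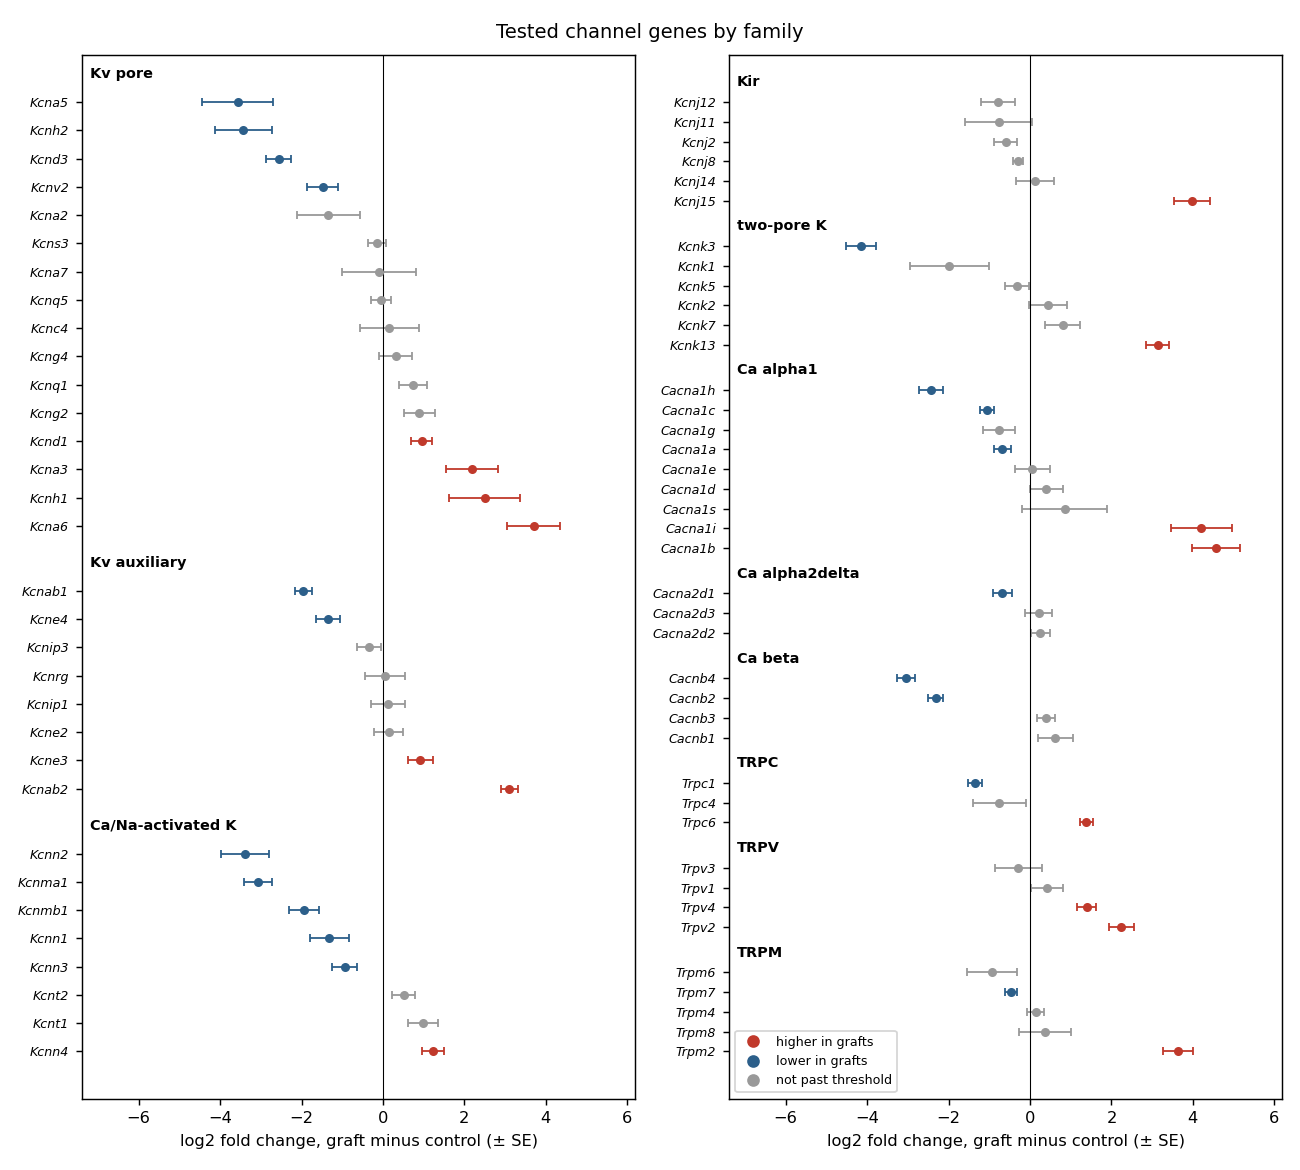
Log2 fold change (graft minus control) with its standard error for 72 of the 75 tested channel genes, by family, with Kv for voltage-gated and Kir for inward rectifier potassium channels. Red points passed the test and were higher in grafts, blue points passed and were lower in grafts, and grey points did not pass. Kcnk3 was lowest at -4.15 and Cacna1b highest at 4.57.

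The large-conductance calcium-activated (BK) potassium channel of smooth muscle is built from the pore encoded by Kcnma1 and the beta1 subunit encoded by Kcnmb1, which makes it more sensitive to calcium. Both fell, and to unequal extents. The promoters of this pair are shown because its subunits are made together in smooth muscle and fell together here. Each sequence runs from 250 bases before to 50 bases after the annotated start of the gene in the RefSeq annotation of build GRCr8, with GGGCGG (the GC box, on either strand) in capitals.
Kcnma1 promoter (chr15:351675-351974, + strand): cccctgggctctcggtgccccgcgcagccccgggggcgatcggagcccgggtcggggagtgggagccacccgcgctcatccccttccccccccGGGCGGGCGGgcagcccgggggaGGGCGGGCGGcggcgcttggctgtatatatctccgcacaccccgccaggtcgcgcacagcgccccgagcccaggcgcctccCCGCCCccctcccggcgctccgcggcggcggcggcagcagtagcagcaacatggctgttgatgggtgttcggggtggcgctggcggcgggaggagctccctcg
Kcnmb1 promoter (chr10:19061849-19062148, + strand): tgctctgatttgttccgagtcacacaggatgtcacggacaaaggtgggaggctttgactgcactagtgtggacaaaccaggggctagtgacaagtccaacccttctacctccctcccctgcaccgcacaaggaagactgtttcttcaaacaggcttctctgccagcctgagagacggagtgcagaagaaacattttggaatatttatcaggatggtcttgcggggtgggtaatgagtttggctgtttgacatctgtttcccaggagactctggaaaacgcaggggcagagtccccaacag
The Kcnma1 window was 78.3% G or C and held 5 GC boxes, of which 4 lie as overlapping pairs on the + strand and 1 on the other strand. The Kcnmb1 window was 51.7% G or C and held 0. RefSeq promoters were found for 93 of the 133 members (105 windows), of which 47.6% held GGGCGG on either strand, against 33.1% of all 33469 windows. The windows were not matched for base content, with a median of 60.3% G or C in the members and 51.7% in all. GGGCGG was in 50% of windows of members that rose, 58.8% of those that fell, 58.8% of those that did not pass and 33.3% of those not tested. The CArG box, the motif of serum response factor, searched with any A or T in its middle, was in 0 of the 105 windows and in 1.64% of all. These matches describe the windows alone.

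Kcnma1 stood at 12.8, 15.8, 4.40 and 8.60 CPM in grafts 1 to 4, against 101, 94.0, 66.6 and 89.0 CPM in controls 1 to 4. Every graft lay far below every control, and graft 3 was lowest. On the log2 scale Kcnma1 fell by 3.07 ± 0.34 (SE; edgeR adjusted p = 0.000144). Kcnmb1 stood at 15.5, 28.2, 6.72 and 19.0 CPM in the grafts, against 82.5, 68.0, 54.2 and 62.0 CPM in the controls, again with graft 3 lowest and no overlap. It fell by 1.94 ± 0.36 (edgeR adjusted p = 0.00216). The log2 ratio of Kcnmb1 to Kcnma1 averaged 0.71 ± 0.36 in the grafts and -0.39 ± 0.12 in the controls (SD, n = 4 each), a difference of 1.10 (exact two-sided permutation test, p = 0.0286, the smallest that 4 against 4 libraries can give; adjusted p = 0.0343 over 6 ratios). In RefSeq Kcnmb1 overlaps Kcnip1, whose counts were few (93 in the grafts and 62 in the controls). The other beta subunit genes were scarce in both groups. Kcnmb2 had 10 counts in the grafts and 9 in the controls, Kcnmb4 had 20 and 23, and Kcnmb3 had 0.

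The level of contractile smooth muscle genes moved with the BK genes. All 15 genes of that list fell, with a median log2 fold change of -2.46, and their summed level ran from 2517 to 4722 CPM in the grafts and from 17003 to 27670 CPM in the controls, with no marker at 0. Graft 3, lowest for Kcnma1 and Kcnmb1, was also lowest for this sum. In these bulk samples fewer smooth muscle cells and less RNA per cell cannot be told apart, and the part of the smooth muscle share in each channel result was not tested.

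Of the 8 tested calcium- or sodium-activated potassium channel genes, 5 fell and 1 rose. The riser was Kcnn4, the intermediate-conductance channel of leukocytes, endothelium and dividing smooth muscle. Kcnn4 stood at 21.4, 55.2, 48.0 and 42.4 CPM in the grafts, against 17.8, 20.1, 19.9 and 12.9 CPM in the controls. Graft 1 lay just above the highest control and the other grafts were well above. It rose by 1.23 ± 0.28 (SE; edgeR adjusted p = 0.00627). The log2 ratio of Kcnn4 to Kcnma1 averaged 2.05 ± 1.11 in the grafts and -2.30 ± 0.44 in the controls (SD, n = 4 each), a difference of 4.36 (exact permutation p = 0.0286, adjusted p = 0.0343). Kcnn4 alone and Kcnma1 alone each separated the groups, in opposite directions. Their ratio therefore had to separate the groups as well, and its p adds no support. Kcnt1, a sodium-activated channel, stood at 8.50, 8.49, 13.7 and 8.54 CPM in the grafts, against 8.17, 5.58, 2.76 and 2.99 CPM in the controls, without overlap, and just missed the threshold (0.98 ± 0.36, edgeR adjusted p = 0.0512). The number that rose in this family was 2 without control 1, by DESeq2, by limma voom and with each of the 3 other scalings tried. Among the small-conductance channels, Kcnn2 fell by 3.40 ± 0.59 (edgeR adjusted p = 0.00161) from low levels, averaging 0.171 ± 0.140 CPM in the grafts and 1.91 ± 0.362 CPM in the controls (SD, n = 4 each). Kcnn3, a small-conductance channel of endothelium, averaged 4.26 ± 1.02 CPM in the grafts and 8.31 ± 3.19 CPM in the controls, with overlap (log2 fold change -0.94, edgeR adjusted p = 0.0351). Its call held in 1 of 8 fits with 1 library left out, the one without control 1, and the adjusted p reached 0.0974 without control 4 and 0.223 without controls 3 and 4. Kcnn1, another small-conductance channel, was called at -1.32 (edgeR adjusted p = 0.0494) and passed only without control 2 or control 4 among those fits (0.139 without control 1). Without controls 3 and 4 Kcnn1 stood at -1.56 (0.0782). The fits without 1 of grafts 1 to 4 or control 3 also lost Kcnn1, with adjusted p of 0.0603 to 0.109, and those for Kcnn3 without graft 1, 2, 3 or 4 or control 2 or 3 gave 0.0519 to 0.0883. The number that fell in this family was 3 without controls 3 and 4, without control 3, or without any 1 graft.

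Voltage-gated potassium channel genes split: of 18 tested pore genes, 6 fell and 4 rose. Kcnd3, a pore of the transient A-type current, stood at 6.80, 3.15, 8.48 and 4.37 CPM in the grafts, against 30.9, 27.3, 37.9 and 39.0 CPM in the controls. Every graft was far below every control, and Kcnd3 fell by 2.56 ± 0.30 (SE; edgeR adjusted p = 0.000172). Kcnq5, an M-type channel, averaged 5.88 ± 1.61 CPM in the grafts and 6.07 ± 0.774 CPM in the controls, a log2 fold change of -0.04 (edgeR adjusted p = 0.897) whose sign turned with the scaling. Kcnh2, the ERG channel best known from the heart, stood at 1.40, 7.14, 0.480 and 1.35 CPM in the grafts, against 44.9, 27.5, 16.1 and 22.6 CPM in the controls. Graft 2 was highest among the grafts, and the gene fell by 3.43 ± 0.70 (edgeR adjusted p = 0.00365), or by 4.65 without graft 2. Kcnv2, a silent subunit, fell by 1.48 ± 0.38 (edgeR adjusted p = 0.0118).

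The pore genes that rose numbered 4, and 2 without graft 2, graft 3 or control 3. Kcna3, the channel known from T cells and macrophages, stood at 4.79, 7.59, 8.24 and 3.34 CPM in the grafts, against 2.25, 1.99, 0.669 and 0 CPM in the controls. The groups did not overlap, and it rose by 2.18 ± 0.64 (SE; edgeR adjusted p = 0.0212). It missed the threshold without graft 2 (edgeR adjusted p = 0.0520), graft 3 (0.0532) or control 3 (0.0575), and without controls 3 and 4 it was called at 1.49 (0.0373). Kcna6, a channel described mainly in nerve cells, stood at 8.50, 6.01, 9.12 and 4.49 CPM in the grafts, against 1.20, 0.0996, 0.0837 and 0.747 CPM in the controls, and rose by 3.70 ± 0.65 (edgeR adjusted p = 0.00161). All control values of Kcna6 were far below the lowest graft, and without control 1 the value was 4.85. Kcnd1, an A-type pore gene like Kcnd3, moved the other way: it averaged 15.2 ± 1.99 CPM in the grafts and 7.91 ± 2.50 CPM in the controls (SD, n = 4 each), and rose by 0.95 ± 0.25 (edgeR adjusted p = 0.0127). Kcnh1 was called at 2.49 (edgeR adjusted p = 0.0434), with 1.28 to 2.43 CPM in the grafts and 0 to 1.12 CPM in the controls. Of the fits with 1 library left out it passed without control 4 (0.0196), and the other 7 fits gave 0.0634 to 0.0999. All 12 control counts of Kcnh1 lay in controls 3 and 4. Without both libraries the adjusted p was 0.00276, and no fold is given because the remaining controls had 0 counts.

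Auxiliary subunits of these channels were also divided, with 2 of 8 tested higher and 2 lower. The number higher was 1 in 6 of the 8 fits with 1 library left out, those that lost Kcne3. The beta subunit genes Kcnab1 and Kcnab2, whose products bind the inner face of Kcna-type channels, moved in opposite directions. Kcnab1 stood at 15.2, 7.96, 11.2 and 13.4 CPM in the grafts, against 55.7, 45.3, 44.8 and 39.0 CPM in the controls, and fell by 1.95 ± 0.21 (SE; edgeR adjusted p = 0.000118). Kcnab2 stood at 26.1, 29.0, 41.4 and 27.0 CPM in the grafts, against 3.52, 4.38, 3.35 and 2.99 CPM in the controls, and rose by 3.10 ± 0.21 (edgeR adjusted p = 2.15e-05). Neither gene overlapped between the groups. Kcnab2 overlaps Nphp4 in RefSeq, which had 902 counts in the grafts and 316 in the controls, and reads of overlapping genes are not told apart where the counting ignored strand. Kcne4, an inhibitory subunit, stood at 38.4, 26.4, 14.9 and 38.7 CPM in the grafts, against 92.4, 91.4, 59.6 and 59.0 CPM in the controls. It fell by 1.35 ± 0.30 (edgeR adjusted p = 0.00566), with graft 3 lowest. Kcne3 was called at 0.92 (edgeR adjusted p = 0.0393) with overlapping groups, and passed only without graft 1 or control 4 among the fits with 1 library left out. The other 6 of those fits gave 0.0547 to 0.0969. Kcne3 was highest among the controls in controls 3 and 4 (5.52 and 7.28 CPM), and without both it was called at 1.51 (0.00699).

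**Figure D2:**
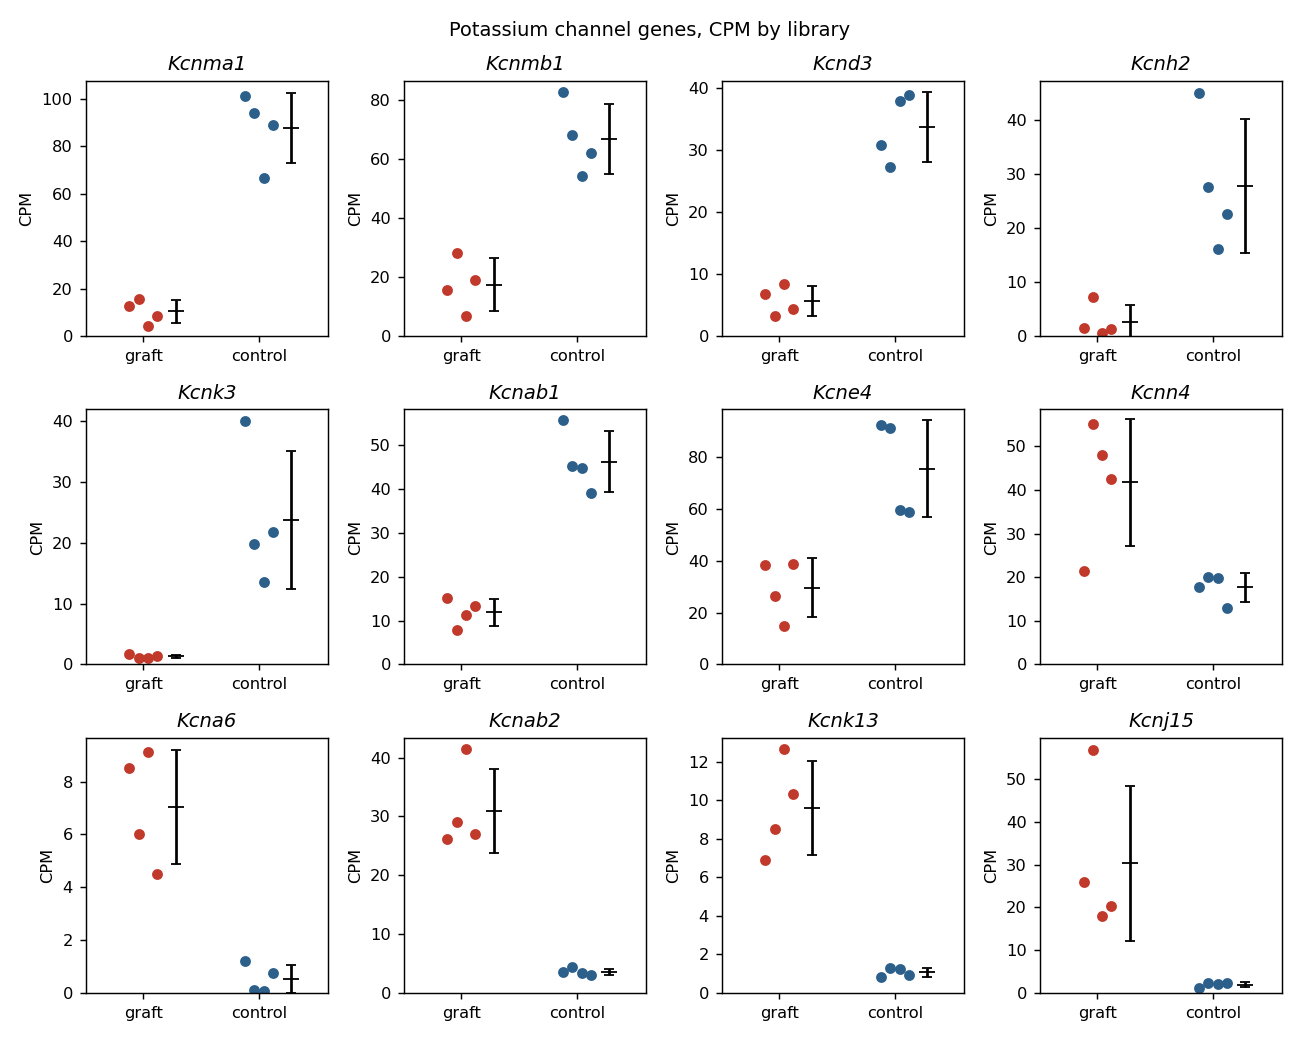
CPM of 12 potassium channel genes in each library, with grafts in red and controls in blue. Each point is 1 library, and the bar beside each group is its mean ± SD (n = 4), drawn down to 0 where it would go lower. The first 7 genes were lower in the grafts and the last 5 higher, with no overlap of the groups.

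Kcna1 and Kcna2, which encode the channels clustered beside the nodes of myelinated axons, and Kcna5, a delayed rectifier of vascular smooth muscle, had their highest levels in controls 3 and 4. Other channel genes did too, among them Kcnd3, Kcnn3, Kcnj13, Trpc1 and Trpm7. The order is thus not particular to the Kcna genes, and its share over all genes is not given here. Kcna1 was not tested. It had 8 counts in the grafts, all in graft 3, and 304 in the controls, of which 88.2% came from controls 3 and 4 (15.2 and 16.1 CPM, against 0.375 and 3.09 CPM in controls 1 and 2). Kcna2 stood at 32.9, 21.3, 40.1 and 13.9 CPM in the grafts, against 4.87, 30.9, 121 and 119 CPM in the controls. The groups overlapped, with control 1 below every graft. Its log2 fold change was -1.34 ± 0.77 (SE; edgeR adjusted p = 0.187) with all libraries, -1.74 without control 1 (0.0179) and 0.61 without controls 3 and 4 (0.542). Kcna5 stood at 0.667, 0.225, 2.32 and 1.16 CPM in the grafts, against 1.57, 7.67, 14.4 and 28.9 CPM in the controls. Graft 3 lay above control 1, and the gene fell by 3.57 ± 0.87 (edgeR adjusted p = 0.00893). The value was -4.18 without graft 3, -2.85 without control 4 and -2.07 without controls 3 and 4 (edgeR adjusted p = 0.0999), and limma voom did not call it (0.0692). The log2 ratio of Kcna3 to Kcna5 averaged 2.52 ± 1.30 in the grafts and -3.25 ± 3.39 in the controls (SD, n = 4 each; exact permutation p = 0.0286, adjusted p = 0.0343). Its size depends on the prior count, since Kcna3 had 0 counts in control 4. As Kcna3 rose and Kcna5 fell, the ratio adds little to the results of the genes themselves.

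The Schwann cell list was high in the same libraries. Its summed level was 222, 140, 473 and 175 CPM in grafts 1 to 4, and the control values are given above. Of its 8 tested genes 4 fell and 4 did not pass, and no marker was at 0 in either group as a whole. The fat cell list, of which 9 of 9 tested genes fell, ran from 150 to 212 CPM in the grafts and from 558 to 3581 CPM in the controls, with Ucp1 at 0 in the grafts. Whether nerve or fat in these control samples bears on the 3 genes was not tested beyond leaving the libraries out. Kcnk1, a tandem-pore channel, showed a like order, with 1.03, 0.901, 2.56 and 0.642 CPM in the grafts against 0.899, 0.199, 11 and 8.40 CPM in the controls, and did not pass (edgeR adjusted p = 0.127).

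**Figure D3:**
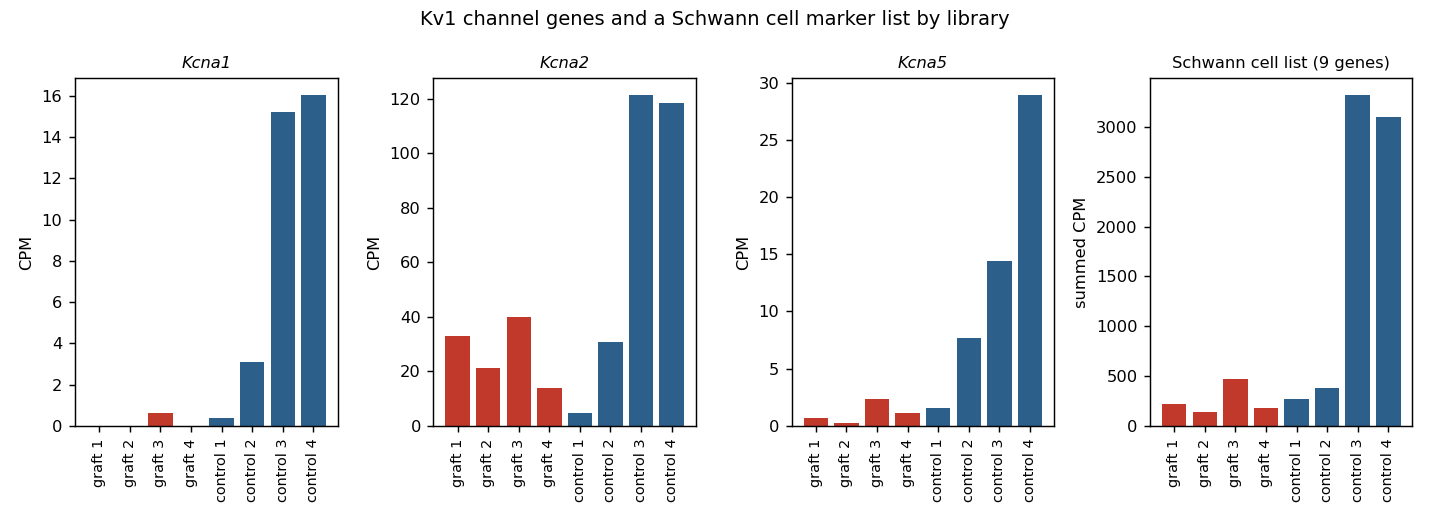
CPM of Kcna1, Kcna2 and Kcna5 and summed CPM of the 9 Schwann cell list genes, 1 bar per library, grafts in red and controls in blue. In all 4 panels the highest bars are controls 3 and 4, at 121 and 119 CPM for Kcna2, and among the grafts graft 3 is highest.

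Among inward rectifiers, 1 of 6 tested genes rose and 0 fell by edgeR, with 1 lower at an unadjusted p under 0.05 and 0 lower by DESeq2 or limma voom. The number lower was 2 without control 1 and 1 without graft 3. The riser, Kcnj15, described in kidney and other epithelia, stood at 25.9, 56.8, 17.9 and 20.4 CPM in the grafts, against 1.12, 2.29, 2.01 and 2.43 CPM in the controls. Every graft was above every control, with graft 2 highest, and it rose by 3.98 ± 0.44 (SE; edgeR adjusted p = 0.000135). Kcnj8 encodes the pore of the vascular ATP-sensitive potassium channel. It stood at 24.5, 21.5, 20.9 and 24.3 CPM in the grafts, against 25.0, 29.0, 27.9 and 30.1 CPM in the controls, close together though without overlap. Its log2 fold change of -0.29 ± 0.13 did not pass (edgeR adjusted p = 0.0875), except without control 1 (-0.34, 0.0398). Abcc9, the sulfonylurea receptor subunit that completes this channel and is no member of the gene set by name, averaged 255 ± 59.8 CPM in the grafts and 914 ± 184 CPM in the controls (SD, n = 4 each) and fell by 1.84 ± 0.21 (edgeR adjusted p = 0.000152). The log2 ratio of Abcc9 to Kcnj8 averaged 3.45 ± 0.25 in the grafts and 5.00 ± 0.37 in the controls, a difference of -1.55 (exact permutation p = 0.0286, adjusted p = 0.0343). Abcc9 alone separated the groups, and Kcnj8 varied too little to undo this, so the p of the ratio adds no support. Kcnj2, the strong inward rectifier of smooth muscle and endothelium, stood at 20.9, 31.9, 23.2 and 17.8 CPM in the grafts, against 19.5, 43.8, 45.8 and 33.0 CPM in the controls. The groups overlapped through control 1, and -0.60 ± 0.28 did not pass (edgeR adjusted p = 0.110), though it did without that control (-0.81, 0.0130).

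The tandem-pore channels, which carry leak currents, had 1 gene lower and 1 higher among 6 tested. Kcnk3 encodes the acid-sensitive TASK channel that carries a leak current in pulmonary artery muscle. It stood at 1.70, 1.13, 1.04 and 1.41 CPM in the grafts, against 40.0, 19.8, 13.6 and 21.8 CPM in the controls. It fell by 4.15 ± 0.37, the largest fall among the tested channel genes (SE; edgeR adjusted p = 4.61e-05). Kcnk13, a halothane-inhibited channel known from microglia, the macrophages of the brain, stood at 6.92, 8.49, 12.6 and 10.3 CPM in the grafts, against 0.824, 1.29, 1.25 and 0.933 CPM in the controls. The groups lay far apart, and it rose by 3.13 ± 0.29 (edgeR adjusted p = 5.35e-05).

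Voltage-gated calcium channels are assembled from a pore (alpha1), a beta subunit inside the cell and an alpha2delta subunit outside it. Of 9 tested alpha1 genes 3 fell and 2 rose (4 rose without control 3, with or without control 4). Cacna1c, the L-type pore of smooth muscle and heart, stood at 123, 109, 101 and 94.4 CPM in the grafts, against 293, 220, 186 and 192 CPM in the controls. The groups did not overlap, and it fell by 1.06 ± 0.16 (SE; edgeR adjusted p = 0.000849). The contractile list ran from -4.25 to -0.94. Cacna1h, a T-type pore opened by small depolarizations, stood at 13.5, 14.0, 18.2 and 11 CPM in the grafts, against 108, 94.6, 42.8 and 60.3 CPM in the controls, and fell by 2.43 ± 0.30 (edgeR adjusted p = 0.000226). The other T-type gene with many counts, Cacna1g, averaged 21.0 ± 6.58 CPM in the grafts and 35.6 ± 21.7 CPM in the controls, with overlap, and did not pass (edgeR adjusted p = 0.143). Cacna1a, the P/Q-type pore, was called at -0.68 (edgeR adjusted p = 0.0275) with overlapping groups. It missed the threshold without graft 1 (0.0630), graft 2 (0.0730), graft 4 (0.0776) or control 1 (0.0516), and with library totals in place of TMM factors (0.157).

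The calcium channel pore genes that rose, Cacna1b and Cacna1i, are described mainly in nerve cells. Cacna1b encodes the N-type pore. It stood at 5.22, 2.25, 7.52 and 2.89 CPM in the grafts, against 0.0749, 0.199, 0.167 and 0.373 CPM in the controls, and rose by 4.57 ± 0.59 (SE; edgeR adjusted p = 0.00031). No control had more than 2 counts of Cacna1b. Cacna1i, a T-type pore, stood at 3.22, 6.08, 7.12 and 3.02 CPM in the grafts, against 0.674, 0, 0.167 and 0 CPM in the controls, and rose by 4.21 ± 0.75 (edgeR adjusted p = 0.00179). Control 1 held 9 of its 11 control counts, and without it the value was 5.89. Cacna1b and Cacna1i passed the count filter only through the grafts, so their p-values are given as description. In the neuron list, 3 of 5 tested genes (Stmn2, Gap43 and Tubb3) rose, while Syt1 (-0.66) and Camk2a (0.11) did not pass. Its untested genes were scarce and divided. Snap25 had 8 counts in the grafts and 20 in the controls, Nefm 1 and 18, and Rbfox3 18 and 5. The summed level of the list ran from 34.3 to 69.1 CPM in the grafts and from 9.36 to 14.6 CPM in the controls, and Gad2 was at 0. Stmn2 alone averaged 23.4 CPM in the grafts and 3.27 CPM in the controls. The part of nerve tissue in these rises was not tested. Cacna1s, the pore of skeletal muscle, followed no group: it stood at 11.1, 0.826, 7.44 and 11.6 CPM in the grafts, against 0.899, 0.199, 13.8 and 1.87 CPM in the controls (edgeR adjusted p = 0.538). The skeletal muscle list, with 1 of 12 genes higher, summed to 770, 39.4, 397 and 995 CPM in the grafts and to 55.1, 43.2, 1570 and 220 CPM in the controls, so that graft 2 and controls 1 and 2 were low for both. Tnnt2 and Actc1 of the cardiac list rose and Ryr2 fell, of 3 tested, while Nppb and Myl7 were at 0 and the list summed to 19.6 to 50.6 CPM in the grafts and 53.6 to 63.1 CPM in the controls.

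The beta subunits changed in part. Of 4 genes, Cacnb2 and Cacnb4 fell and Cacnb1 and Cacnb3 did not pass, though Cacnb3 did without control 1. Cacnb4 stood at 6.31, 3.68, 4.64 and 5.39 CPM in the grafts, against 55.2, 39.9, 38.2 and 32.1 CPM in the controls, and fell by 3.04 ± 0.23 (SE; edgeR adjusted p = 2.67e-05). Cacnb2, the usual partner of Cacna1c in heart and vessel, stood at 5.34, 6.84, 6.00 and 5.07 CPM in the grafts, against 25.6, 36.7, 27.9 and 25.8 CPM in the controls, and fell by 2.32 ± 0.18 (edgeR adjusted p = 3.12e-05). For both genes all grafts were far below all controls. Cacnb3 stood at 39.3, 33.1, 34.0 and 28.1 CPM in the grafts, against 36.0, 28.2, 18.7 and 19.0 CPM in the controls (0.39 ± 0.22, edgeR adjusted p = 0.184), and without control 1 the value was 0.61 (0.0264). The log2 ratio of Cacnb3 to Cacnb2 averaged 2.50 ± 0.25 in the grafts and -0.23 ± 0.48 in the controls (SD, n = 4 each), a difference of 2.72 (exact permutation p = 0.0286, adjusted p = 0.0343). Cacnb2 alone separated the groups, and Cacnb3 varied too little to undo this, so the p of the ratio adds no support. Cacnb1 averaged 10.1 ± 4.43 CPM in the grafts and 6.47 ± 3.27 CPM in the controls (edgeR adjusted p = 0.269). In RefSeq it overlaps Rpl19, a ribosomal protein gene with 22668 counts in the grafts and 15783 in the controls, so its counts are uncertain.

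Of 3 tested alpha2delta genes, Cacna2d1, the subunit that brings L-type channels to the membrane of muscle, was called. It stood at 220, 171, 89.4 and 188 CPM in the grafts, against 242, 290, 265 and 273 CPM in the controls, with graft 3 lowest and no overlap. It fell by 0.68 ± 0.24 (SE; edgeR adjusted p = 0.0423). The adjusted p rose to 0.157 without controls 3 and 4 and lay between 0.0621 and 0.102 without graft 2, graft 4, control 2, control 3 or control 4. It was 0.0871 with library totals in place of TMM factors and 0.0560 with upper-quartile factors. The log2 ratio of Cacna2d1 to Cacna1c averaged 0.57 ± 0.52 in the grafts and 0.28 ± 0.38 in the controls (SD, n = 4 each), and the difference of 0.29 was within the spread of the libraries (exact permutation p = 0.400).

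TRPC channels open downstream of receptors that activate phospholipase C. Of 4 tested genes, Trpc6 rose and Trpc1 fell. Trpc6, which is activated by diacylglycerol and known in smooth muscle, stood at 22.0, 30.3, 23.8 and 25.4 CPM in the grafts, against 8.84, 8.96, 10.7 and 10.5 CPM in the controls. It rose by 1.38 ± 0.16 (SE; edgeR adjusted p = 0.000156). Trpc1 stood at 9.28, 8.64, 7.60 and 7.58 CPM in the grafts, against 17.2, 19.2, 22.9 and 25.4 CPM in the controls, and fell by 1.35 ± 0.17 (edgeR adjusted p = 0.00031). Both genes varied little within a group and did not overlap between groups.

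Of 4 tested TRPV genes 2 rose. Trpv2, known from macrophages and stretched muscle, stood at 38.6, 64.0, 38.8 and 69.98 CPM in the grafts, against 17.0, 11.3, 7.70 and 8.21 CPM in the controls, and rose by 2.24 ± 0.31 (SE; edgeR adjusted p = 0.000431). Trpv4, an osmotic and mechanical sensor of endothelium and other cells, stood at 11.7, 11.7, 13.5 and 14.8 CPM in the grafts, against 6.37, 3.19, 5.02 and 5.04 CPM in the controls. It rose by 1.40 ± 0.23 (edgeR adjusted p = 0.00118), with no overlap for either gene. Of 12 endothelial genes 1 rose, 6 fell and 5 did not pass, and their summed level ran from 1869 to 2201 CPM in the grafts and from 3468 to 5347 CPM in the controls, with no marker at 0.

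Of 5 tested TRPM genes 1 rose and 1, Trpm7, fell. Trpm2, a calcium-permeable channel of phagocytes opened by oxidative stress, stood at 23.7, 36.1, 49.5 and 27.5 CPM in the grafts, against 2.77, 2.89, 3.85 and 0.933 CPM in the controls, and rose by 3.64 ± 0.37 (SE; edgeR adjusted p = 8.29e-05). Trpm7, a channel fused to a kinase and made by most cells, stood at 233, 239, 182 and 227 CPM in the grafts, against 248, 316, 325 and 329 CPM in the controls. It was called at -0.47 ± 0.14 (edgeR adjusted p = 0.0221), but not without graft 3 (0.0531), control 2 (0.0622), control 3 (0.0544), control 4 (0.0651) or controls 3 and 4 (0.170). With library totals in place of TMM factors Trpm7 stood at -0.25 (0.129). Trpm4, a calcium-activated cation channel of smooth muscle, averaged 24.4 ± 3.79 CPM in the grafts and 22.1 ± 6.08 CPM in the controls, with overlap (edgeR adjusted p = 0.618).

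**Figure D4:**
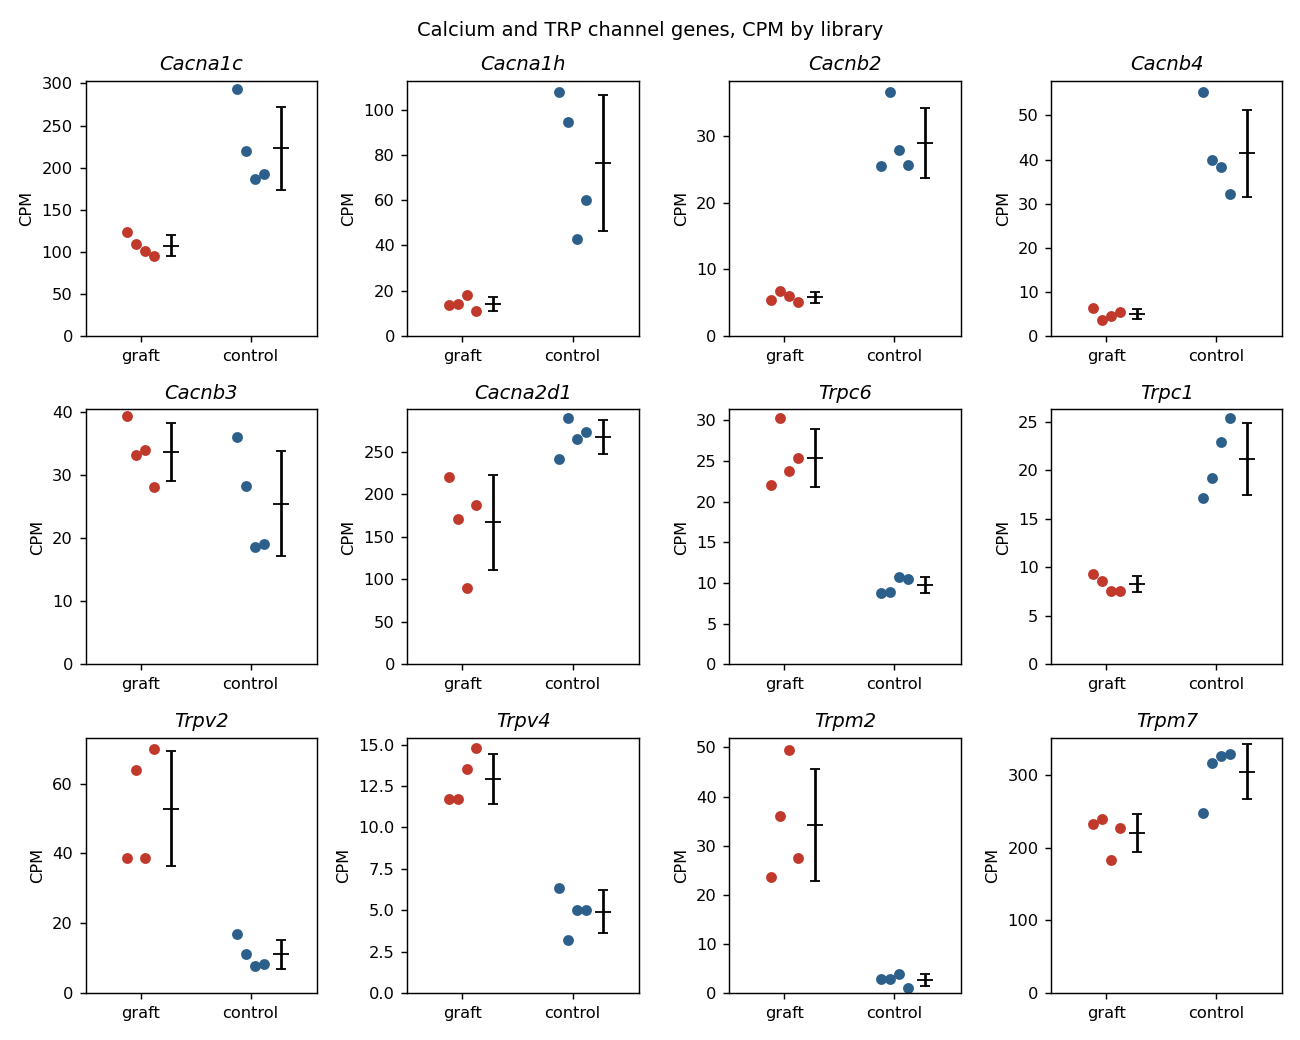
CPM of 12 calcium and TRP channel genes in each library, with grafts in red and controls in blue. Each point is 1 library, and the bar beside each group is its mean ± SD (n = 4). Cacnb3 is the gene whose groups overlap, and Trpc6 and Trpc1 moved in opposite directions.

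Some channel genes that rose are known from leukocytes (Kcnn4, Kcna3, Kcnk13, Trpv2 and Trpm2), and most leukocyte markers rose too. These channel genes are listed because they rose, so the shared direction is no support. Of the macrophage list 10 of the 11 genes in the table rose, and its summed level ran from 1210 to 1966 CPM in the grafts and from 255 to 430 CPM in the controls. Of the T cell list 8 of 8 tested genes rose, with 49.5 to 121 CPM in the grafts and 6.35 to 19.1 CPM in the controls, and no marker of either list was at 0 in a group. The part of leukocytes in these channel results was not tested. Of 7 mast cell genes 6 fell, with summed levels of 48.4 to 79.0 CPM in the grafts and 93.4 to 246 CPM in the controls. Of 8 fibroblast genes 2 rose and 2 fell, with 15874 to 37553 CPM in the grafts and 37991 to 74857 CPM in the controls.

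**Figure D5:**
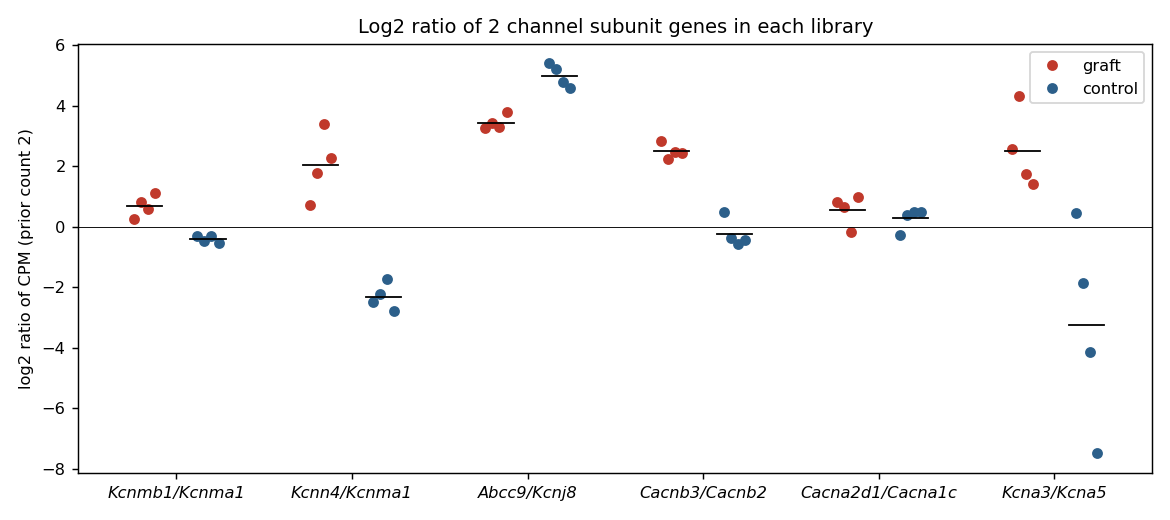
Log2 ratio of the CPM of the first gene to that of the second (prior count of 2) in each library, with grafts in red, controls in blue and black lines at the group means. The groups do not overlap for 5 of the 6 ratios, and they overlap for Cacna2d1/Cacna1c. For Kcnn4/Kcnma1 the separation follows from that of each gene, and for Abcc9/Kcnj8 and Cacnb3/Cacnb2 from that of Abcc9 and Cacnb2.

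Partner proteins of these channels that the naming rule leaves out were likewise divided. Of 27 such genes 15 were tested, of which 3 rose, 6 fell and 6 did not pass. Beside Abcc9, the genes that fell included Dpp6, an auxiliary subunit of A-type potassium channels such as that of Kcnd3, at 0.225 ± 0.150 CPM in the grafts and 4.78 ± 1.53 CPM in the controls (SD, n = 4 each; log2 fold change -4.35 ± 0.50, edgeR adjusted p = 0.000164). Amigo1, a membrane protein that associates with potassium channels, averaged 10.9 ± 2.34 CPM in the grafts and 27.4 ± 2.58 CPM in the controls (-1.33 ± 0.18, edgeR adjusted p = 0.000402). Stac, an adaptor that binds L-type calcium channels, averaged 10.6 ± 1.73 CPM in the grafts and 22.1 ± 1.30 CPM in the controls (-1.05 ± 0.16, edgeR adjusted p = 0.000756). The pore and a partner both fell for Kcnd3 and Dpp6 and for Cacna1c and Stac. Other genes did not follow: Stac2, Stac3 and the auxiliary genes Kcnip1 and Kcnip3 did not pass, and the A-type pore gene Kcnd1 rose. Cacng7, of the gamma subunit family, fell by 3.43 ± 0.58 (edgeR adjusted p = 0.00139; log2 fold change -4.03 without graft 1) and Pkd2l1, a polycystin channel, by 3.31 ± 0.52 (edgeR adjusted p = 0.000891), both from low levels. The genes that rose were the mucolipins, TRP channels of lysosomes. Mcoln3 averaged 8.49 ± 1.63 CPM in the grafts and 0.154 ± 0.122 CPM in the controls (5.56 ± 0.42, edgeR adjusted p = 2.67e-05), and Mcoln2 7.32 ± 4.79 CPM in the grafts and 0.336 ± 0.185 CPM in the controls (4.37 ± 0.58, edgeR adjusted p = 0.000379). Mcoln2 and Mcoln3 had under 10 counts in every control library, and Dpp6 and Pkd2l1 in every graft library. These genes passed the count filter only through the other group, so their p-values are given as description. Mcoln1 was called at 0.56 (edgeR adjusted p = 0.0380) with overlapping groups, and passed without graft 3 or control 1 alone among the fits with 1 library left out (the other 6 gave 0.0754 to 0.0991). Without controls 3 and 4 Mcoln1 stood at 0.40 (0.229).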

How the data were processed

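The authors deposited 1 table of whole-number counts per gene and library. Reads were aligned with HISAT2 2.0.4 to build Rnor_6.0 (submitters' processing notes). The counting tool, its annotation and its strand setting were not given in the sources used here. Counts of overlapping or near-identical genes may therefore be shared.

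From these counts, genes were filtered with filterByExpr (minimum count 10), scaled by TMM and tested with edgeR 4.0.16 (R 4.3.3; glmQLFit and glmQLFTest, 4 grafts against 4 controls, no covariate), with Benjamini-Hochberg adjustment over 15464 genes and a threshold of 0.05. A standard error is the size of the log2 fold change divided by the square root of F. The steps were tested on simulated data. Subunit ratios used log2 CPM with a prior count of 2 and a two-sided exact permutation test, adjusted over 6 ratios. Groups came from the sample titles. In all, 16 alternatives were tried, among them DESeq2 1.42.0 and limma 3.58.1 (voom). Floors of 3 counts cover counting error only. Overlaps with neighbouring genes come from RefSeq (GRCr8), where 132 members carry a current symbol and 1 an older one.

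Genes were named by rule: a core of 23 channels known in vessels or leukocytes, and in each of 11 families those called with the smallest p and the one with the most counts. Other called members, Kcna1, Kcnk1, Kcnt1, Cacna1g, Cacna1s, Cacnb1 and the minor subunits were named after their values were seen. Some named genes are not reported here. Members and lists were chosen with earlier results of these data known.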

Additional observations from a re-analysis of the deposited data

Results flagged for a closer look

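Among 33 channel genes named by the rule, 1 of 66 groups of 4 libraries held a value whose gap to its nearest neighbour was above the 95% critical value of Dixon's test, where chance gives about 1 in 20. Trpm7, the channel kinase made by most cells, stood at 248 CPM in control 1, against 316 to 329 CPM in the other controls.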

How the results depend on the processing

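Of the 46 called genes (37 channel genes and 9 partners), none changed direction in 16 alternatives, and 36 kept the call in all; of 736 values 666 kept it and 70 missed the threshold. The genes that lost it at least once were Cacna2d1, Trpm7, Kcna5, Kcna3, Kcne3, Kcnh1, Kcnn3, Kcnn1, Cacna1a and Mcoln1. Channel genes called higher numbered 12 to 18 and lower 17 to 24. With library totals in place of TMM factors the median over all genes was 0.23 and not 0.01, and 17 channel genes were higher and 17 lower. Among uncalled genes, Kcna2 was 0.61 and Trpm4 -0.0825 without controls 3 and 4, and Kcnq5 was 0.17 with library totals, 0.0094 with upper-quartile factors, 0.0875 without controls 3 and 4, and -0.18 to 0.10 with 1 library left out, above 0 without graft 2, graft 3 or control 3. With the title number as a replicate block 14 were higher and 19 lower. Deviations of log2 CPM from the group mean correlated at -0.07 to 0.18 between same-numbered libraries. These are not correlations of whole profiles, and they do not settle the pairing. The numbers were not used to pair libraries. The labels name the other vein of the same animal without saying which, so the pairing is unknown. With 1 library left out the differences in log2 ratio ran from 0.96 to 1.25 for Kcnmb1/Kcnma1, 3.91 to 4.80 for Kcnn4/Kcnma1, -1.68 to -1.42 for Abcc9/Kcnj8, 2.61 to 2.96 for Cacnb3/Cacnb2, 4.36 to 7.01 for Kcna3/Kcna5 and 0.10 to 0.54 for Cacna2d1/Cacna1c; 3 against 4 libraries cannot give an exact permutation p under 0.0571. Control 4 had the lowest total, so genes near 3 counts are least certain there.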

Other observations

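Some channel genes with too few counts to test were found in 1 group alone or nearly so. Kcns1, a silent subunit of voltage-gated channels, had 41 counts in the grafts (1.15, 0.300, 0.240 and 0.963 CPM in grafts 1 to 4) and 0 in the controls. Kcnk12, a silent relative of Kcnk13, had 38 counts in the grafts, of which graft 1 held most at 1.33 CPM, and 0 in the controls. Kcna4, an A-type pore gene, had 22 counts in the grafts and 0 in the controls. Graft 2 held 20 of them (1.5 CPM), and grafts 3 and 4 had 0 like the controls. A control count of 0 allows up to 0.225 to 0.560 CPM per library. Kcnc2, a fast delayed rectifier of nerve cells, had 56 counts in the grafts and 10 in the controls, and Kcnj5, a G protein-gated inward rectifier of the atrium, had 46 in the grafts and 9 in the controls. In the other direction, Kcnd2, an A-type pore gene, had 7 counts in the grafts and 58 in the controls, of which 40 came from control 1. Kcnj13, an inward rectifier, had 4 counts in the grafts and 46 in the controls, of which 89.1% came from controls 3 and 4. These genes were chosen after their counts were seen and have no test.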
